A study of Pomacea canaliculata with 36 samples.

Results

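Polyadenylated RNA of eye stalks of the apple snail *Pomacea canaliculata* was compared between the group collected 9 days post amputation (9dpa, 4 libraries) and the group labelled Intact (4 libraries). These 8 of the 36 libraries of the series were taken by their group label alone. The series follows the regrowth of the eye over 9 groups, Intact and 1, 3, 6, 9, 12, 15, 21 and 28 days post amputation, and the 6dpa and 12dpa groups serve below as the neighbours in time. The labels give no strain, age, sex or agent, and amputation is the only treatment they name. They do not say whether a library holds 1 animal or a pool, nor whether separate animals gave the 4 libraries of a group. A p-value here therefore reflects only how much libraries vary within groups, which may be technical. The spread behind it was estimated in a fit to all 36 libraries, not to the compared libraries alone. The series' design text lists day 7 where the library labels give 6dpa, and the labels were followed.

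The apple snail carries its eye at the tip of a stalk. The eye is of the camera type, in which a lens focuses light on a retina of photoreceptor cells. After amputation a wound in molluscs and many other animals is closed by epithelium, and in many animals that regrow a lost part, dividing cells gather beneath that epithelium before the differentiated tissue forms again. The amputation takes away the tissue itself, and in bulk RNA fewer cells of a type and less RNA per cell cannot be told apart. Genes carry only locus identifiers in the sources used here, so no role is given to any of them, and whether the markers of lens, photoreceptor or any other cell type stood as the tissue label implies was not analysed here.

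At 9dpa the eye stalk had a lower level of 3529 genes and a higher level of 3832 genes than in Intact, so that 42.4% of the 17341 tested genes were called. The called higher made up 22.1% of the tested genes and the called lower 20.4%. Here called means an adjusted p below 0.05 in edgeR's quasi-likelihood test with Benjamini-Hochberg adjustment, and 8507 genes had an unadjusted p below 0.05. The 4 libraries of 9dpa all lay above the 4 of Intact in 3724 genes, or 21.5% of those tested, and all lay below them in 3349, or 19.3%. Of these, 3257 and 3032 were called. The other 10268 genes overlapped between the groups, and 1072 of them were called.

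Total counts were between 22403557 and 25688319 in the Intact libraries and between 25108496 and 28060773 in the 9dpa libraries. One CPM, the unit of levels below, is a count scaled to library size by TMM factors, and stood for 23.1 to 30.6 counts. Each of the 8 libraries detected 18568 to 18725 of the 21131 listed genes with a count or more. The median over tested genes of the SD of log2 CPM among replicates was 0.185 in Intact and 0.192 at 9dpa.

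The numbers of genes called in each direction were close, and the sizes of the changes were not. The median fold of the genes called higher was 1.56, and that of the genes called lower was 1.72. Under 2-fold, 2625 genes were higher and 2113 lower. From 2-fold to 4-fold there were 900 higher and 819 lower, and from 4-fold to 8-fold there were 247 higher and 313 lower. At 8-fold or more 60 genes were higher and 284 lower, which is 1.57% of the genes called higher and 8.05% of those called lower. At 4-fold or more, 307 genes were called higher, 1.77% of the tested genes, and 597 lower, 3.44% of them. The plot of change against level shows the same asymmetry gene by gene.

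**Figure D1:**
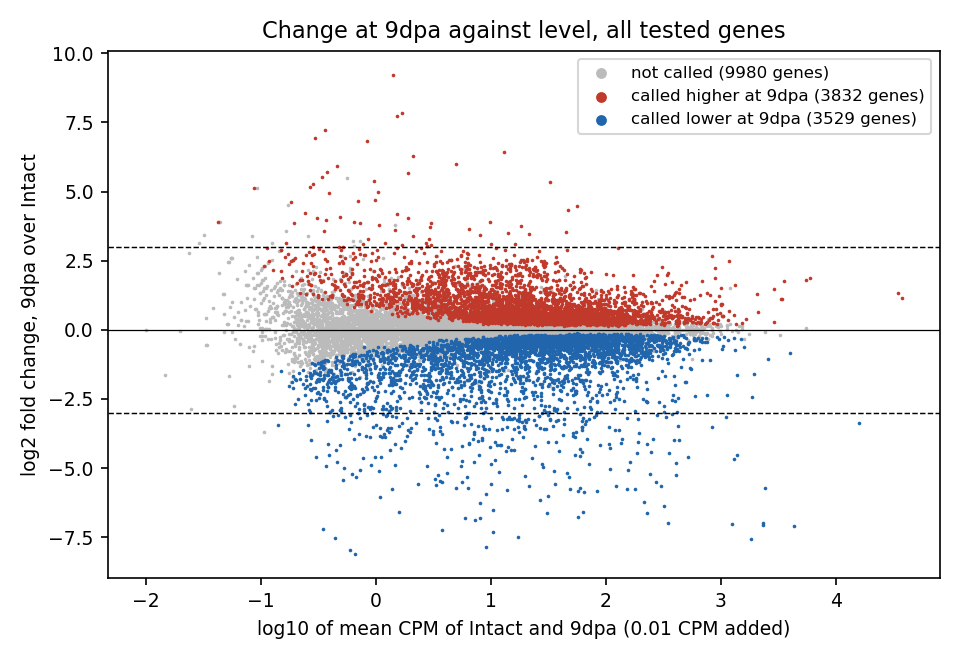
Each point is 1 of the 17341 tested genes, with the log10 of its mean CPM in Intact and 9dpa across and its log2 fold change, 9dpa over Intact, upwards; dashed lines mark 8-fold. The 3832 genes called higher are red and the 3529 called lower are blue, and the points past the lower dashed line reach far higher levels than those past the upper one.

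**Figure D2:**
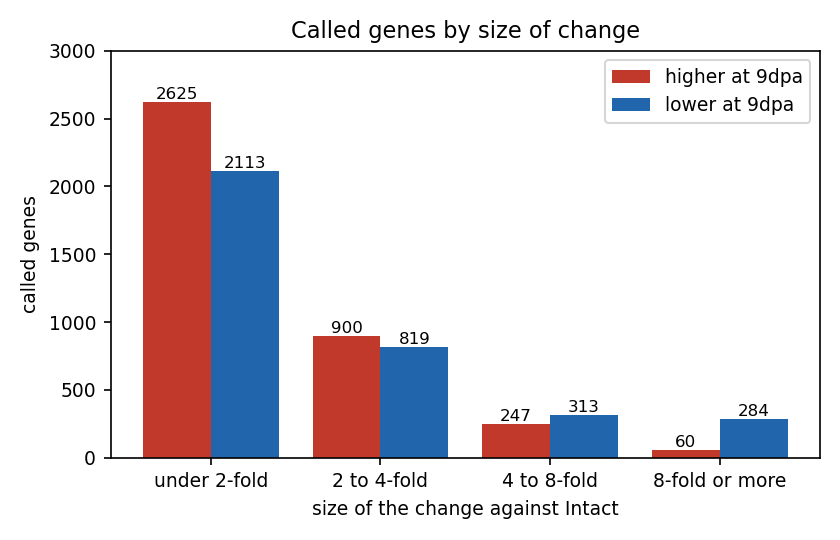
Bars give the number of genes called higher and lower at 9dpa in 4 classes of size of the change against Intact. Higher genes outnumber lower genes under 2-fold, 2625 to 2113, and lower genes outnumber higher genes at 8-fold or more, 284 to 60.

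Calls were also counted by the level of the gene, taken as the mean of the 9 group means. That level includes Intact, 9dpa and the other time points after amputation. Genes lowered after amputation are thus moved towards low classes, and genes raised after it towards high ones. Part of any link between level and direction below is therefore built in. Of the 2180 tested genes under 1 CPM, 164 were called higher and 409 lower. From 1 to 10 CPM 794 of 4833 genes were higher and 931 lower. From 10 to 100 CPM 2214 of 8374 genes were higher and 1706 lower, and from 100 to 1000 CPM 617 of 1878 were higher and 470 lower. Of the 76 genes over 1000 CPM, 43 were higher and 13 lower. Fewer counts stand behind the low genes, which limits how many of them can be called. Of the 60 genes higher by 8-fold or more, 22 had a mean under 1 CPM, 26 from 1 to 10 CPM, 10 from 10 to 100 CPM and 2 above that. Of the 284 genes lower by 8-fold or more, 68 had a mean under 1 CPM, 108 from 1 to 10 CPM, 80 from 10 to 100 CPM, 25 from 100 to 1000 CPM and 3 over 1000 CPM. Among the 100 most abundant genes by the same mean, 53 were called higher, 18 lower and 29 neither. Ranking by that mean likewise favours genes raised after amputation. The 5 of these 100 genes that changed by 8-fold or more were all lower.

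The strongly lower genes had held a large share of the RNA. The 284 genes lower by 8-fold or more took 9.56% ± 1.06 (SD, n = 4) of all counts in Intact, with a range of 8.70% to 11.1%. They took 0.527% ± 0.173 at 9dpa, with a range of 0.372% to 0.716%. The share was spread unevenly: in Intact LOC112562530 alone had a mean of 28995 CPM, while the median over the 284 genes was 22.8 CPM. The 60 genes higher by 8-fold or more took 0.00435% ± 0.000934 of the counts in Intact and 0.0697% ± 0.0159 at 9dpa. With the bound set at 2-fold, the 1416 lower genes went from 17.1% ± 1.44 to 2.96% ± 0.227, and the 1207 higher genes from 8.35% ± 1.27 to 21.5% ± 1.91. These genes were chosen by the same comparison, so the shares describe how much RNA they held and test nothing.

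The 4 genes named for the largest fall or for the highest Intact level among falls were all far lower in every 9dpa library than in any Intact library. LOC112562530, the most abundant gene among those lower by 4-fold or more, stood at 35627, 27418, 26656 and 26279 CPM in Intact replicates 1 to 4. At 9dpa it stood at 4523, 1676, 3483 and 1576 CPM. The fall was 3.36 ± 0.65 (SE) on the log2 scale, with an adjusted p of 8.64e-05 in edgeR's quasi-likelihood test, and the gene was still among those of 1000 CPM or more at 9dpa.

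LOC112576458 stood at 11674, 7713, 8280 and 6998 CPM in Intact and at 112, 37.9, 80.0 and 22.5 CPM at 9dpa. The groups lie far apart, and the 9dpa libraries differ among themselves by more than the Intact libraries do on a ratio scale. Its log2 fold change was -7.11 ± 1.09 (edgeR adjusted p = 3.41e-06).

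LOC112571947 stood at 4323, 3234, 3718 and 3420 CPM in Intact and at 29.4, 12.3, 25.7 and 10.7 CPM at 9dpa. Its log2 fold change was -7.56 ± 0.72 (edgeR adjusted p = 4.32e-10). In these 3 genes the 9dpa libraries had the same order, with replicate 1 highest, then 3, then 2, then 4. LOC112566244 had a lower Intact level, 14.6, 18.7, 28.1 and 10.9 CPM, and was near the counting limit at 9dpa, at 0.0396, 0.0746, 0.149 and 0.0327 CPM. It had 1823 counts over the Intact libraries and 8 over the 9dpa libraries, and its log2 fold change was -7.86 ± 0.45 (edgeR adjusted p = 1.16e-18).

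The genes named for a rise had less extreme levels. LOC112572014, with the highest 9dpa level among rises of 4-fold or more, stood at 384, 325, 373 and 347 CPM in Intact and at 2301, 2012, 1898 and 1894 CPM at 9dpa. It rose by 2.50 ± 0.15 on the log2 scale (edgeR adjusted p = 8.59e-15). LOC112556018 stood at 227, 310, 367 and 362 CPM in Intact and at 1391, 1434, 1449 and 1614 CPM at 9dpa, for a log2 fold change of 2.22 ± 0.13 (edgeR adjusted p = 4.43e-15). In both genes the replicates of a group lie close together and the groups lie apart.

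Among genes with a mean of 5 CPM or more at 9dpa, the 2 largest rises were in genes that were nearly silent in Intact and uneven at 9dpa. LOC112568715 stood at 0.159, 0.368, 0.432 and 0.220 CPM in Intact and at 15.1, 8.54, 22.8 and 55.4 CPM at 9dpa. Its log2 fold change was 6.43 ± 0.75 (edgeR adjusted p = 2.33e-08), with replicate 4 of 9dpa well above the other libraries, and 5.71 without that library, still called.

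LOC112561517 stood at 0.317, 0.147, 0.0864 and 0.0367 CPM in Intact and at 8.94, 28.8, 0.372 and 0.720 CPM at 9dpa. Every 9dpa library lies above every Intact library, but replicates 3 and 4 lie close to the highest Intact library. Its log2 fold change was 6.00 ± 1.30 (edgeR adjusted p = 0.000285), and without replicate 2 of 9dpa it was 4.42, still called. Such unevenness was seen in other strong rises: in 14 of the 60 genes higher by 8-fold or more, 1 of the 4 libraries had a 9dpa level above the sum of the other 3. The same was so of the Intact level in 9 of the 284 genes lower by 8-fold or more. At 2-fold or more it was so in 31 of 1207 higher genes and in 36 of 1416 lower genes. A single high library can itself help a gene reach 8-fold. The 60 genes also had a lower median level at 9dpa, 2.40 CPM, than the 284 had in Intact, 22.8 CPM.

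**Figure D3:**
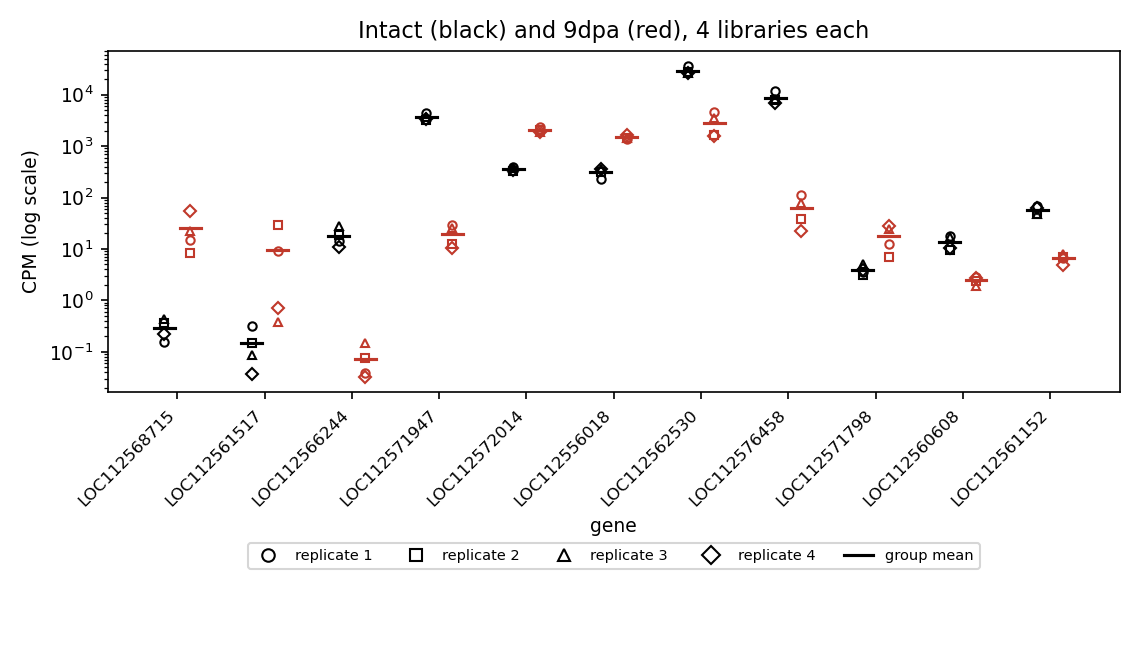
The CPM of each named gene is shown on a log axis, with Intact in black and 9dpa in red, 1 marker shape per replicate number and a bar at the group mean. The groups do not overlap for any gene, and the 9dpa points spread widely for LOC112561517, from 0.372 to 28.8 CPM, and narrowly for LOC112572014.

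Some genes passed from no counts to counts or the reverse. Of the tested genes 11 had no count in any Intact library and some at 9dpa. Of these, 5 were called higher, beside 22.1% of all tested genes. LOC112567961 had 302 counts at 9dpa, at 3.09, 2.16, 3.20 and 2.62 CPM in replicates 1 to 4, and was at least 94.5-fold higher when Intact is given a floor of 3 counts over its 4 libraries. Its 4 libraries at 9dpa lie close together (edgeR adjusted p = 5.54e-05). In the reverse direction 6 genes had no count at 9dpa, and 4 of them were called lower, beside 20.4% of all tested genes. LOC112562452 had 129 counts over the Intact libraries and was at least 45.8-fold lower at 9dpa (edgeR adjusted p = 9.72e-09), and LOC112572823, with 119 counts, was at least 42.3-fold lower (edgeR adjusted p = 4.56e-07). These bounds cover counting error only, and the 3 genes were picked as those with the most counts. A gene without counts in Intact could only be called higher, and a gene without counts at 9dpa only lower. Such a gene passed the count filter through the other groups.

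Placed in the course of the series, the strong falls had, by their median, a higher level at 9dpa than at the 3 earlier time points. The median over the 284 genes of the mean CPM was 22.8 in Intact and 0.439 at 1dpa. The 3dpa median was 0.413, the 6dpa median 0.531 and the 9dpa median 1.26. After 9dpa it stood at 3.94 (12dpa), 3.34 (15dpa), 4.85 (21dpa) and 7.76 (28dpa), and at 28dpa 237 of the 284 were still lower than in Intact by more than 2-fold in their group means. The 60 strongly higher genes had a median of 0.0931 CPM in Intact and 0.493 CPM at 1dpa. It was 0.845 CPM at 3dpa, and stayed at 2.17 (6dpa), 2.40 (9dpa), 1.85 (12dpa) and 2.41 CPM (15dpa). The 21dpa median was 1.57 CPM and the 28dpa median 0.874 CPM, when 58 of the 60 were higher than in Intact by more than 2-fold in their group means. The genes were chosen at 9dpa against Intact, so these 2 groups are where they had to stand apart.

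The named genes differed in how far they had come back. LOC112562530 had means of 240 ± 50.2 CPM at 6dpa, 2815 ± 1437 at 9dpa and 15174 ± 5849 at 12dpa (SD, n = 4 each), and 22378 ± 3939 at 28dpa, beside 28995 ± 4446 in Intact. LOC112571947 went from 2.43 ± 0.968 CPM at 6dpa to 19.5 ± 9.44 at 9dpa, then to 224 ± 32.0 at 12dpa, and its level 28 days after amputation was 514 ± 92.3 CPM, beside 3673 ± 476 in Intact. LOC112576458 went from 1.29 ± 0.796 CPM at 6dpa to 63.1 ± 40.6 at 9dpa and 256 ± 55.9 at 12dpa, and stood at 417 ± 130 at 28dpa, beside 8667 ± 2073 in Intact.

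The tests against the neighbouring time points place these levels. Against 6dpa 3358 genes, 19.4% of those tested, were called at 9dpa, and against 12dpa 5071 genes, 29.2%. These contrasts share the 9dpa libraries with each other and with the comparison against Intact. Over 6dpa the log2 change at 9dpa was 3.55 ± 0.65 for LOC112562530, 5.58 ± 1.17 for LOC112576458 and 2.99 ± 0.69 for LOC112571947, with edgeR adjusted p of 0.000296, 0.00116 and 0.00272. Against 12dpa the 9dpa level was lower by log2 changes of -2.43 for LOC112562530, -3.52 for LOC112571947 and -3.37 for LOC112566244, with edgeR adjusted p of 0.00369, 6.04e-05 and 0.000494. For LOC112576458 the change against 12dpa was -2.03 ± 0.87 and was not called (edgeR adjusted p = 0.0808). LOC112566244 had not moved from its 6dpa level by a called amount, at 0.0792 ± 0.0522 CPM at 6dpa and 0.0740 ± 0.0533 at 9dpa.

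Among the risen genes, LOC112572014 was lower at 9dpa than at 6dpa by a log2 change of -0.43 ± 0.15 (edgeR adjusted p = 0.0384). LOC112556018 was lower at 9dpa than at 12dpa by -0.34 ± 0.13 (edgeR adjusted p = 0.0398). These contrasts were rerun under other settings only for genes above or below both neighbours, so neither call was checked that way. LOC112568715 had 53.7 ± 7.86 CPM at 6dpa, 25.5 ± 20.8 at 9dpa and 24.7 ± 12.4 at 12dpa, and neither difference from 9dpa was called (edgeR adjusted p = 0.0812 and 0.946).

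**Figure D4:**
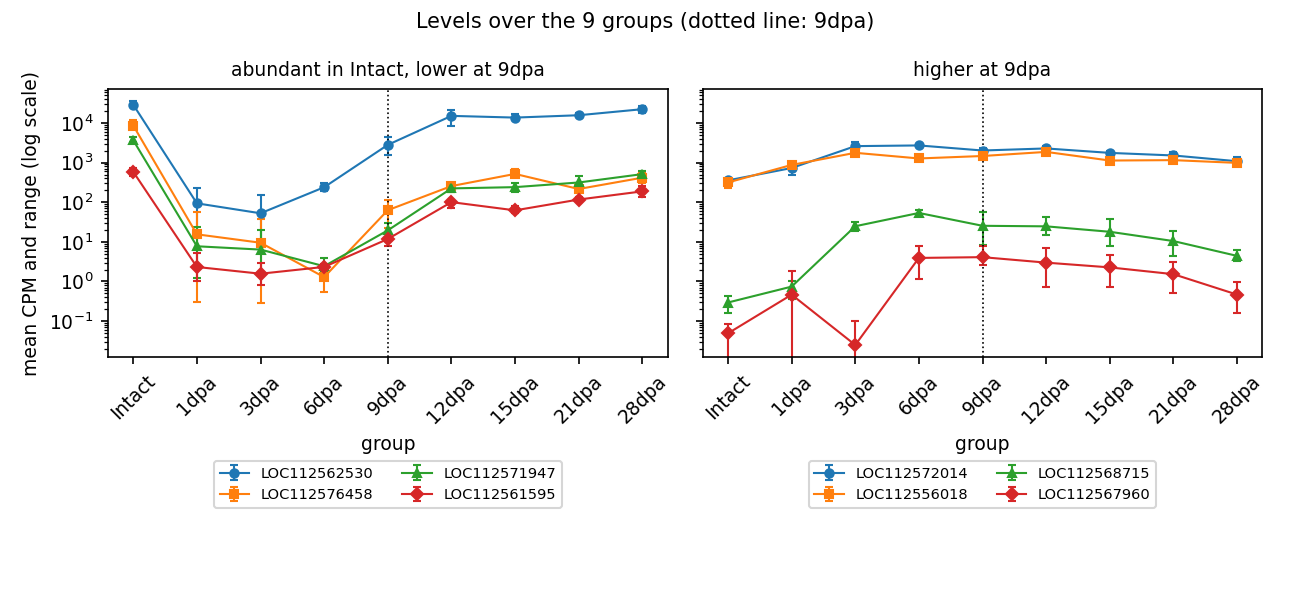
Points are mean CPM on a log axis over the 9 groups and bars the range of the 4 libraries; a bar that reaches the lower edge includes a library at 0. The 4 genes abundant in Intact on the left are at their lowest from 1dpa to 6dpa and are climbing at 9dpa, while the means of the 4 higher genes on the right differ less between 6dpa and 12dpa than between Intact and 6dpa.

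How far the 9dpa libraries lay on the way from 6dpa to 12dpa was measured on genes chosen without them. In a fit without the 9dpa libraries, 1079 genes were called higher by 2-fold or more at 12dpa than at 6dpa, and 548 lower. Each library's position was the median over these genes of its distance from the 6dpa mean, where 0 is the 6dpa mean and 1 the 12dpa mean of log2 CPM. On the rising genes the 9dpa replicates 1 to 4 stood at 0.621, 0.555, 0.562 and 0.446, a mean of 0.546 ± 0.0732 (SD, n = 4). On the falling genes they stood at 0.250, 0.323, 0.386 and 0.352, a mean of 0.328 ± 0.0579. Every 9dpa library was farther along on the rising genes than on the falling genes. No test was made of this difference, and its size and direction may depend on the scale. Between the 6dpa and 12dpa means, a rising gene stands farther along in log2 CPM than in CPM, and a falling gene less far. Positions in CPM were not computed. Only genes that differ between 6dpa and 12dpa enter the position, so it does not describe all genes. Among tested genes called at 9dpa against both neighbours, 441 were above both and 521 below both. Another 430 were above 6dpa and below 12dpa, and 111 were below 6dpa and above 12dpa.

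Replicate 1 was the farthest along on the rising genes and the least far on the falling genes. Of 1078 rising genes, replicate 1 had the highest level of the 4 in 428, or 39.7%, and replicate 4 the lowest in 457, or 42.4%. That order, 1 high and 4 low, is also the order in LOC112562530, LOC112571947 and LOC112576458. The genes share their libraries, so these counts describe the 4 libraries and are not independent observations.

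For the 555 genes that were lower than in Intact by 8-fold or more at 6dpa in that fit, the median level as a percentage of the Intact mean was 15.5%, 12.7%, 14.0% and 12.2% in the 9dpa replicates. The mean of these was 13.6% ± 1.46, beside 7.46% at 6dpa and 25.4% at 12dpa. All 4 of the 9dpa libraries lay between the ranges of 6dpa, 6.73% to 7.91%, and of 12dpa, 22.3% to 26.6%. The genes were chosen for a low level at 6dpa, which holds the 6dpa percentages down. A higher percentage at 9dpa than at 6dpa is therefore partly built in.

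**Figure D5:**
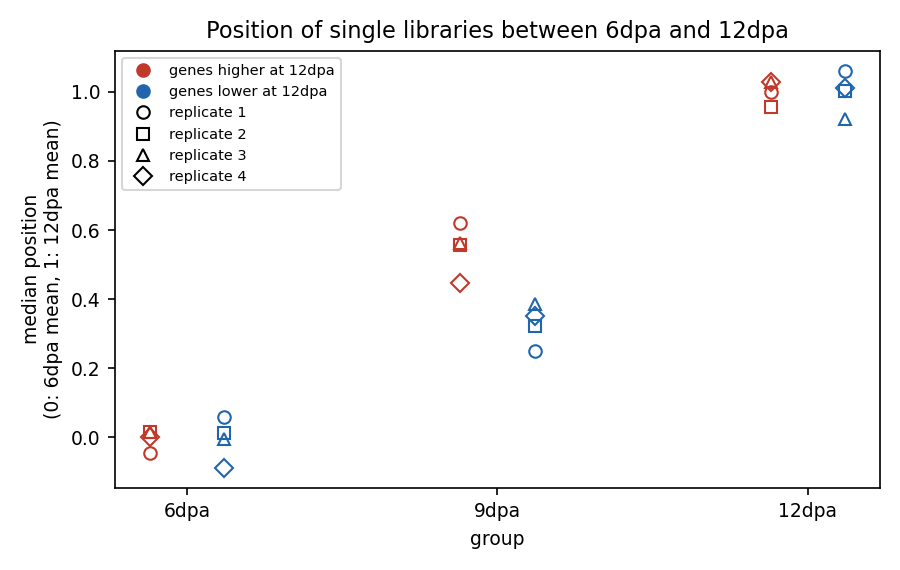
Each marker is 1 library, with its group across and its median position between the 6dpa mean (0) and the 12dpa mean (1) upwards, red for the 1079 rising and blue for the 548 falling genes. The 9dpa libraries lie between 0.446 and 0.621 on the rising genes and between 0.250 and 0.386 on the falling genes.

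Genes outside the span between the neighbours were named only where they met a stricter rule. The rule took genes called against Intact by 4-fold or more, with no overlap and a mean of 5 CPM or more in the higher group. It held for 175 higher and 391 lower genes. Of these, 6 were called higher at 9dpa than at both 6dpa and 12dpa and 6 were called lower than at both. Among all 17341 tested genes, without these bounds, 441 were called above both and 521 below both. Both contrasts use the same 9dpa libraries, and 19.4% and 29.2% of all tested genes were called in them.

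LOC112571798 stood at 3.57, 3.06, 5.05 and 3.89 CPM in Intact, at 0.868, 1.13, 5.76 and 1.99 CPM at 6dpa, at 12.8, 6.97, 24.8 and 28.1 CPM at 9dpa and at 4.60, 11.8, 6.81 and 8.05 CPM at 12dpa. The 9dpa libraries lie above all Intact and all 6dpa libraries, and replicate 2 of 9dpa lies within the 12dpa range. The log2 change was 2.23 ± 0.44 against Intact, 2.87 ± 0.45 against 6dpa and 1.22 ± 0.40 against 12dpa (edgeR adjusted p = 0.000103, 4.09e-05 and 0.0214). It also had a high level at 1dpa, 45.1 ± 5.65 CPM, and 2.95 ± 1.05 CPM at 3dpa. The other gene named above both was LOC112561517, at 0.812 ± 1.20 CPM at 6dpa, 9.71 ± 13.3 at 9dpa and 0.615 ± 0.546 at 12dpa, where replicates 1 and 2 of 9dpa carry the level. Without replicate 2 of 9dpa its log2 change was 1.97 against 6dpa and 2.41 against 12dpa, neither of them called (edgeR adjusted p = 0.163 and 0.0771).

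LOC112560608 stood at 17.6, 9.61, 17.1 and 10.7 CPM in Intact, at 5.59, 6.46, 4.20 and 5.16 CPM at 6dpa, at 2.85, 2.39, 1.94 and 2.68 CPM at 9dpa and at 10.4, 11.0, 10.5 and 8.18 CPM at 12dpa. All 4 libraries of 9dpa lie below all libraries of these 3 groups, while the earlier means were lower still, 0.631 ± 0.334 CPM for 1dpa and 1.20 ± 0.558 CPM for 3dpa. The log2 change was -2.47 ± 0.23 against Intact, -1.11 ± 0.24 against 6dpa and -2.02 ± 0.23 against 12dpa (edgeR adjusted p = 9.16e-11, 0.00123 and 8.64e-08).

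LOC112561152 stood at 67.4, 48.0, 47.6 and 61.9 CPM in Intact, at 15.2, 9.98, 8.82 and 11.3 CPM at 6dpa, at 6.69, 6.97, 8.08 and 4.91 CPM at 9dpa and at 11.9, 10.8, 14.6 and 13.3 CPM at 12dpa. Again the 9dpa libraries lie below all libraries of these 3 groups, and above the levels of 0.933 ± 0.101 CPM at 1dpa and 2.66 ± 1.07 CPM at 3dpa. The log2 change was -3.08 ± 0.18 against Intact, -0.77 ± 0.18 against 6dpa and -0.92 ± 0.18 against 12dpa (edgeR adjusted p = 4.19e-15, 0.00360 and 0.000293). Each gene had 24 further fits, over the contrasts with 6dpa and with 12dpa together, under other scalings, DESeq2, a replicate block or a library left out. Both dips were called in all 24, whereas the calls of LOC112571798 were lost in 4 and those of LOC112561517 in 3. For LOC112571798 the lost fits were against 12dpa, at log2 changes of 1.04 and 0.93 without replicate 3 or 4 of 9dpa and of 1.03 and 1.16 without replicate 1 or 3 of 12dpa.

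The remaining 8 genes were named after their values had been seen. Above both neighbours were LOC112573182, which was higher than in Intact (9.44 ± 2.87 CPM at 9dpa, 1.43 ± 0.315 in Intact), and LOC112567711, LOC112556358 and LOC112560727, which were lower than in Intact. For LOC112567711 the means were 9.60 CPM at 6dpa, 13.0 ± 1.29 at 9dpa and 9.78 at 12dpa, beside 55.9 ± 5.80 in Intact, and its calls held in all 24 fits. Below both were LOC112562142, lower than in Intact (18.0 ± 2.52 CPM at 9dpa, 81.0 ± 10.2 in Intact), whose calls also held in all 24, and LOC112577188, LOC112571304 and LOC112565188, which were higher than in Intact. These last 3 had alike courses, with their highest level at 3dpa, 65.1 ± 7.93, 66.8 ± 4.82 and 13.5 ± 1.29 CPM, and 30.9 ± 2.64, 35.5 ± 4.06 and 6.52 ± 1.21 CPM at 9dpa. The calls of LOC112573182, LOC112556358, LOC112560727, LOC112577188, LOC112571304 and LOC112565188 were lost in 7, 2, 6, 2, 7 and 7 of the 24 fits, and none reversed. The highest edgeR adjusted p among them was 0.158, and each was a fit without 1 library, apart from 1 with DESeq2 for LOC112573182.

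Genes with strong changes often lay next to each other in the gene table. Of the 597 genes lower by 4-fold or more, 175, or 29.3%, had an adjacent tested gene that was likewise lower, whereas 6.56% of all tested genes had such a neighbour. Of the 307 genes higher by 4-fold or more, 54, or 17.6%, had a neighbour likewise higher, against 3.43% of all tested genes. Runs of 3 or more such genes numbered 19 among the lower, with 65 genes and 6 in the longest, and 5 among the higher, with 16 genes and 4 in the longest. How reads matching more than 1 gene were counted is not given in the sources used here, so counts of near-identical or overlapping neighbours may not be separate measurements. No test was made of the neighbourhood, and the runs described next were picked after their values had been seen.

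One of the lower runs of 6 held genes that fell steeply and together. LOC112561595 stood at 732, 567, 579 and 472 CPM in Intact and at 15.5, 9.14, 14.9 and 7.69 CPM at 9dpa, which is a log2 fold change of -5.64 ± 0.32 (edgeR adjusted p = 2.42e-15). LOC112561576 went from 239 ± 57.1 to 4.75 ± 1.79 CPM and LOC112561587 from 95.7 ± 21.0 to 1.81 ± 0.811 CPM, with log2 fold changes of -5.66 and -5.75. In all 3 the 9dpa replicates had the order 1, 3, 2, 4 from high to low. Their neighbour LOC112570506 went from 258 ± 18.0 to 16.7 ± 2.62 CPM, and the run ended with the low genes LOC112571515, from 0.450 ± 0.0842 to 0.0729 ± 0.0525 CPM, and LOC112571500, from 2.29 ± 0.526 to 0.484 ± 0.278 CPM. The first 4 were called higher at 9dpa than at 6dpa, with log2 changes of 2.33 for LOC112561595, 2.23 for LOC112561576, 1.73 for LOC112561587 and 0.68 for LOC112570506, and lower than at 12dpa.

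The longest run of higher genes held 4 genes that were at or near 0 in Intact. LOC112567960 stood at 0, 0.0368, 0.0864 and 0.0733 CPM in Intact and at 2.61, 7.94, 2.53 and 3.37 CPM at 9dpa, giving a log2 fold change of 6.27 ± 1.17 (edgeR adjusted p = 2.69e-05). LOC112568510 had 1 count over the Intact libraries and 1.74, 1.49, 1.79 and 1.54 CPM at 9dpa. LOC112567963 had no count in Intact and 0.702 ± 0.479 CPM at 9dpa, at least 23.8-fold higher with the same floor. LOC112567959 had 1 count in Intact and 0.542 ± 0.243 CPM at 9dpa. All 4 were called higher against Intact, and none was called between 9dpa and 6dpa or 12dpa. LOC112567961, the gene with no count in Intact described above, lies near them, with 4 protein-coding genes between it and LOC112568510.

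A run of 3 higher genes held LOC112561517 between LOC112561516 and LOC112561514, and its level rested on few libraries. LOC112561514 had 1 count over the Intact libraries and 0.475, 12.5, 0.149 and 0.229 CPM at 9dpa. LOC112561516 stood at 0.437, 0, 0 and 0 CPM in Intact and at 1.23, 1.94, 0.223 and 0.0327 CPM at 9dpa, so that its groups overlap. Replicate 2 of 9dpa was the highest in all 3 genes, and without it LOC112561516 and LOC112561514 were no longer called (edgeR adjusted p = 0.0775 and 0.0784), while LOC112561517 was (0.00986).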

How the data were processed

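RNA of eye stalks was sequenced after poly(A) selection and Trizol extraction, per the labels' protocols. The authors deposited raw read counts per gene for 36 libraries; STAR is the aligner, per the submitters' processing notes, and its version, build, annotation and strand setting are not stated there or in the labels. The 4 libraries labelled 9dpa were compared with the 4 labelled Intact. The analysis used edgeR 4.0.16 under R 4.3.3, with filterByExpr on the 9 groups, TMM scaling, and 1 quasi-likelihood model with a mean per group fitted to all 36 libraries. Tests were 2-sided with Benjamini-Hochberg adjustment over 17341 genes, and a gene was called at an adjusted p below 0.05. CPM were computed with TMM-scaled library sizes. Log2 CPM for the positions used a prior count of 2, and genes whose 6dpa and 12dpa means differed by 0.5 or less on it were left out.

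Named genes were called, did not overlap between the groups and reached a mean of 5 CPM in the higher group. They were the pair with the largest change each way, the pair with the highest level each way among changes of 4-fold or more, and, among such changes, the pairs farthest above and below both 6dpa and 12dpa. The comparison, the gene rule and the lists were chosen with earlier results of these data known. All 21131 identifiers matched locus symbols of a RefSeq gene table of assembly ASM307304v1, which was used only for symbols and neighbours. No product names were given, so 24 prepared gene lists could not be filled, and no protein features were computed.

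Replicate numbers showed no clear pairing of the libraries, though pairing was not excluded, as the sensitivity paragraph records. No pair of libraries within a group agreed within sampling noise (the lowest chi-square per degree of freedom was 11.3), so all were counted singly. Pairs with replicate 1 had the highest values in both groups, 33.6 to 40.8 in Intact and 26.2 to 43.5 at 9dpa. The other pairs had 11.3 to 19.3 in Intact and 21.6 to 24.4 at 9dpa. The alternatives were RLE or library-size scaling, other filters, DESeq2 1.42.0, limma-voom (limma 3.58.1), a fit to the 8 libraries, a replicate block and each library left out. edgeR's earlier quasi-likelihood method and the alternatives for the contrasts with 6dpa and 12dpa were added after the data had been seen.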

Additional observations from a re-analysis of the deposited data

Results flagged for a closer look

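A gap test on single libraries covered 62 groups of 4 among the genes named here, without LOC112562452 and LOC112572823. In it 8 libraries stood apart by more than Dixon's critical value, where chance alone gives about 1 group in 20. In 4 of the 8 the other 3 libraries were at 0, so that any count stands apart and that rate does not apply: these are LOC112561516, LOC112561514, LOC112568510 and LOC112567959 in Intact. Intact replicate 1 was the high library for LOC112562530, at 35627 CPM, for LOC112561516, at 0.437 CPM, and for LOC112561514, at 0.0397 CPM. Intact replicate 2 was high for LOC112568510 and LOC112567959, at 0.0368 CPM each, which is 1 count. At 9dpa, replicate 2 was high for LOC112561514, at 12.5 CPM, for LOC112567963, at 1.42 CPM, and for LOC112567960, at 7.94 CPM.

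The other results stand out because the change from Intact at 9dpa differed from that at 6dpa or at 12dpa in a test of the difference itself. The differences below are log2 values, 9dpa minus the other time point, from edgeR's quasi-likelihood test with all adjusted p below 0.05. The Intact level cancels in them, so they are the contrasts with 6dpa and 12dpa used above. Among the 32 genes examined 45 were found, and the genes were chosen with their values known. Genes that met the rule for above or below both neighbours were selected by these same calls, so their differences were bound to be found.

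Some falls were less deep at 9dpa than at 6dpa and deeper than at 12dpa. Against 6dpa and 12dpa the differences were 3.55 and -2.43 for LOC112562530, 2.99 and -3.52 for LOC112571947, and 2.23 and -3.14 for LOC112561576. They were 1.73 and -3.18 for LOC112561587, 2.33 and -3.10 for LOC112561595, and 0.68 and -1.78 for LOC112570506. Only the difference from 6dpa was called for LOC112576458, at 5.58, and LOC112571500, at 1.30, and only that from 12dpa for LOC112566244, at -3.37. Of the abundant risen genes, LOC112572014 differed from 6dpa by -0.43 and LOC112556018 from 12dpa by -0.34, and neither was rerun under other settings.

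Genes above both neighbours had differences from 6dpa and 12dpa of 3.55 and 3.99 for LOC112561517, 2.87 and 1.22 for LOC112571798, and 1.05 and 1.71 for LOC112573182. Without replicate 2 of 9dpa those of LOC112561517 were 1.97 and 2.41 and were not called. They were 0.43 and 0.41 for LOC112567711, 0.82 and 0.86 for LOC112556358, and 1.39 and 0.79 for LOC112560727. The neighbours of LOC112561517 had 2.26 and 3.15 for LOC112561516 and 4.06 and 4.54 for LOC112561514; the latter had 1 count in Intact.

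Genes below both had differences of -1.11 and -2.02 for LOC112560608, -0.77 and -0.92 for LOC112561152, and -0.56 and -0.46 for LOC112562142. They were -0.45 and -0.50 for LOC112577188, -0.41 and -0.53 for LOC112571304, and -0.48 and -0.59 for LOC112565188.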

How the results depend on the processing

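The count of 7361 called genes was 7328 with RLE scaling, 7224 with library size alone, 7315 without a filter, 7084 with a filter of 1 CPM in 4 libraries, 7444 with DESeq2, 8497 with limma-voom and 7240 in a fit to the 8 libraries. It lay between 6663 and 6907 when 1 library was left out, and 5499 of the 7361 genes, or 74.7%, were called in all 8 of those fits. For genes lower by 8-fold or more that number was 282 of 284, and for genes higher by 8-fold or more it was 48 of 60. The share of calls that were higher lay between 48.9% and 53.2% over all settings, beside 52.1%. Higher calls were thus fewer than lower calls with RLE scaling, 3584 against 3744, and in the fit to the 8 libraries, 3539 against 3701, so which direction had more calls depends on the setting. Deviations of libraries with the same replicate number were correlated at 0.167, -0.0148, -0.0778 and -0.0172 between Intact and 9dpa. Those of libraries with different numbers lay between -0.185 and 0.185. These values show no clear pairing by number and cannot exclude it. With a replicate block 7382 genes were called. The positions between 6dpa and 12dpa were 0.497 on rising and 0.314 on falling genes when the bound was 4-fold, and 0.556 and 0.286 under library size alone. No log2 change of a named gene changed sign under the alternatives run, which left out LOC112562452 and LOC112572823. Depth limits the genes at or near 0: 1 count was 0.0368 CPM in Intact replicate 2, and genes whose lower group held 1 to 3 counts got no fold.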
